A study of Mus musculus with 12 samples.

Results

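Total RNA of a synaptoneurosome layer was compared with total RNA of the whole homogenate, in mouse cortex and hippocampus, with no pull-down of ribosomes on either side. The libraries were chosen by their sample titles, CtxPre for the cortex input and PAPpre for the synaptoneurosome input, which gave 6 of the 12 libraries of the series, 3 per group. The other 6 libraries are ribosome pull-downs (translating ribosome affinity purification, TRAP) from the same kinds of lysate. All mice carried Aldh1L1::RPL10a-eGFP, a transgene that tags the ribosomal protein Rpl10a with a green fluorescent protein expressed from the Aldh1l1 promoter, a driver used for astrocytes. They were of the C57/Bl6 strain and at postnatal day 21, and every sample had cycloheximide at 1 ug/mL, which holds ribosomes on their messages, and TTX, a blocker of sodium channels, at 1 mM. The labels give every sample the cell type astrocytes and 1 extraction text, although the inputs are total RNA of mixed tissue. They do not say whether replicates came from separate mice, so the p-values measure the spread between these libraries, which may be technical.

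A synaptoneurosome is a sealed particle formed when brain tissue is sheared: a presynaptic ending closes over and stays attached to the postsynaptic spine that faces it. Pieces of the astrocyte processes that wrap synapses, mitochondria and fragments of other cells come down in the same layer, while nuclei and cell bodies are meant to be left behind. Messages for membrane and secreted proteins are translated at the endoplasmic reticulum (ER), and messages for soluble proteins are translated on free ribosomes.

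Levels below are normalized CPM (counts scaled to library size by TMM, the trimmed mean of M values), and a change is the log2 difference, synaptoneurosome input minus cortex input, with its SE. A gene was called when its Benjamini-Hochberg adjusted p in edgeR's quasi-likelihood test was below 0.05. Of 41388 genes listed, 13364 passed the filter on low counts and were tested. Of these 1246, or 9.32%, were called. In the synaptoneurosome input 970 genes were called higher, which is 7.26% of the genes tested, and 276 were called lower, which is 2.07%. In 16.4% of genes all 3 synaptoneurosome libraries lay above all 3 cortex libraries, and in 20.1% they lay below. The median change of all genes tested was -0.14.

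The share of mitochondrial transcripts, the depth of nuclear genes and the reads outside genes all moved with the fraction. Genes of the mitochondrial chromosome took 44.8% to 50.2% of gene counts in cortex and 83.8% to 91.9% in synaptoneurosomes, which left 5201429 to 6278525 counts for nuclear genes in cortex and 1423296 to 2476076 in synaptoneurosomes. Reads outside any annotated gene feature numbered 29.97 to 37.01 per 100 nuclear gene counts in cortex and 18.4 to 22.2 in synaptoneurosomes, without overlap (exact two-sided permutation p = 0.1, the smallest that 3 against 3 libraries can give). Synaptoneurosome replicate 3 stood apart from replicates 1 and 2, with the lowest mitochondrial share, the most nuclear counts and the most reads outside features. Without it, 769 genes were called higher and 256 lower. Library depth differed with the group, and its part in the calls was not tested except by thinning all libraries to 1423296 nuclear counts, which gave 1251 higher and 544 lower among 9427 genes tested.

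RNAs that are kept in the nucleus were among the largest falls. Malat1, a long noncoding RNA of nuclear speckles, stood at 12314, 9286 and 14182 in the cortex libraries and 409.6, 289 and 1227 in the synaptoneurosome libraries (log2 change -4.22 ± 0.49, adjusted p = 1.78e-05). The groups did not overlap, and synaptoneurosome replicate 3 was the highest of its group. Without that replicate the change of Malat1 was -5.09, that of Miat -5.96 and that of Mir124a-1hg -4.73. Snhg11, a long noncoding RNA of neurons, fell from 348, 266 and 389 to 20.6, 21.8 and 39.3 (log2 change -3.61 ± 0.35, adjusted p = 2.24e-06), and Miat, another nuclear noncoding RNA, fell from 72, 56.6 and 70.6 to 0.606, 1.49 and 3.47 (log2 change -5.07 ± 0.65, adjusted p = 5.68e-05). For both, every synaptoneurosome library lay below every cortex library. GENCODE M21 types Snhg11 as protein-coding, so it is not among the 555 long noncoding RNAs below. It was scored with the proteins described further below, as a lower gene without a hydrophobic start or stretch. Mir124a-1hg, the host transcript of a neuronal microRNA, fell by 3.87 on the log2 scale (SE 0.89, adjusted p = 0.00847); this call was lost without synaptoneurosome replicate 1 (adjusted p = 0.0529). Of 13 nuclear long noncoding RNAs tested 3 were lower (2.07% of all genes were) and 0 were higher in edgeR's test, with a median of -1.61 (at an unadjusted p below 0.05, 5 lower and 1 higher; by DESeq2, 3 and 1). Together they took a share of nuclear counts of 3.53% ± 0.616 (SD, n = 3) in cortex and 0.189% ± 0.103 in synaptoneurosomes. Malat1 alone made up nearly all of it, at 3.36% and 0.14%, and the other 16 listed genes took 0.176% ± 0.0209 and 0.0491% ± 0.00388. Meg3 and Neat1, also on that list, were not called, with 0 counts in 2 and 1 of the synaptoneurosome libraries respectively. Over all 555 long noncoding RNAs tested the median was -1.09, with 14 lower and 5 higher (3 to 7 lower when any 1 library was left out). These were 2.52% and 0.901% of them, against 2.07% and 7.26% of all genes tested. Among the 2668 genes of lowest level (mean log2 CPM up to 0.769), of any kind, the median was also negative, at -0.724. Whether the median of the long noncoding RNAs follows from their level was not tested. Since the strand setting of the counting is not given, reads of such genes cannot be told apart from those of overlapping or antisense genes.

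Lists of messages for proteins that work in the nucleus had medians nearer to 0. Of 32 splicing and nuclear RNA-binding genes 3 were lower and 0 were higher (median -0.82; by DESeq2, 5 and 0; at an unadjusted p below 0.05, 8 and 0), and in 14 of them all synaptoneurosome libraries lay below all cortex libraries (20.1% of all genes did). The number lower was 6 without synaptoneurosome replicate 3 and 6 with offsets corrected for transcript length. Srsf11, a splicing factor, fell from 56.1, 56.5 and 60.3 to 25.5, 16.1 and 8.87 (log2 change -1.79 ± 0.36, adjusted p = 0.00315), and Rbm39, another, fell from 60.7, 59.8 and 67 to 17.6, 34 and 25.6 (log2 change -1.28 ± 0.28, adjusted p = 0.00668). Zcchc7 and Rsrp1 were among the 12 largest falls, at -3.21 ± 0.61 and -2.72 ± 0.58 (-3.36 without synaptoneurosome replicate 2). Zcchc7 encodes a zinc knuckle protein of nuclear RNA turnover, and Rsrp1 a protein rich in arginine and serine. Chromatin regulators had 0 of 31 members called in edgeR's test and a median of -0.15 (0 higher and 3 lower at an unadjusted p below 0.05, 0 and 1 by DESeq2), but with length-corrected offsets 4 were lower and the median was -0.49. For 307 zinc finger genes of the Zfp series the median was -0.66, with 5 lower, a share below the 2.07% of all genes tested, and 1 higher. The number lower was 0 without cortex replicate 1 or 3, 2 without cortex replicate 2, 3 without synaptoneurosome replicate 1, 8 without synaptoneurosome replicate 3 and 14 with length-corrected offsets.

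Transcripts of the mitochondrial chromosome rose together. All 11 mitochondrially encoded messages tested were higher (against 7.26% of all genes), with a median of 3.85, as were both ribosomal RNAs and 13 of 14 transfer RNAs. The cytochrome oxidase subunit mt-Co1 stood at 2936, 4297 and 4746 in cortex and 48319.5, 49631 and 42162 in synaptoneurosomes (log2 change 3.55 ± 0.25, adjusted p = 1.32e-07). The complex I subunit mt-Nd2 changed most among the called genes that the rule on level admits, from 808, 586 and 936 to 38615, 23621 and 7200.3 (log2 change 4.90 ± 0.49, adjusted p = 4.2e-06); synaptoneurosome replicate 3 was the lowest of its group and still above every cortex library. The ribosomal RNAs mt-Rnr1 and mt-Rnr2 together made up 46.1% of gene counts in cortex and 82.7% in synaptoneurosomes, and the messages 2.16% and 5.79%. These shares are of all gene counts, whereas the levels and log2 changes above are scaled by TMM. The TMM factors were 1.35 to 1.59 in cortex and 0.191 to 0.340 in synaptoneurosomes. The scaled changes are therefore larger than those of the shares, and are to be read relative to the bulk of nuclear genes. Nuclear genes of the respiratory chain, whose proteins are imported into the same organelle, had 2 of 77 higher and 0 lower in edgeR's test, with a median of 0.04 (7 and 0 by DESeq2 and with length-corrected offsets, 9 and 2 at an unadjusted p below 0.05). The 2 were Cox6a1, a cytochrome oxidase subunit (log2 change 1.34 ± 0.30, adjusted p = 0.00626), and Ndufb9, a complex I subunit (log2 change 1.45 ± 0.34, adjusted p = 0.0105). Both calls rested on cortex libraries: without cortex replicate 2 Cox6a1 had an adjusted p of 0.0502, and Ndufb9 lost its call without cortex replicate 1 or 3 (highest adjusted p 0.0782). Of 70 genes for mitochondrial ribosomal proteins 0 were higher and 2 were lower (median -0.51; by DESeq2, 0 and 5; at an unadjusted p below 0.05, 0 and 6), and 0 to 1 were lower when any 1 library was left out.

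Pseudogenes that copy the mitochondrial genome rose with it. Among 217 pseudogenes tested 16 were called higher and 0 lower. The share higher, 7.37%, was close to the 7.26% of all genes tested, of which 2.07% were lower. In 14 of these 16 the transcript shared 25-base stretches with mitochondrial transcripts, and they were all the pseudogenes tested that did. Gm10925 on chr1:24613974-24614651 (GRCm38), whose 25-base stretches all occur in mitochondrial transcripts, changed by 3.71 ± 0.50. Among the 14 the percent of 25-base stretches found in mitochondrial transcripts ranged from 10.95% to 100%. Reads of shared sequence cannot be assigned with certainty, so these 14 calls are not taken as separate from the mitochondrial ones.

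Astrocyte messages were higher in the synaptoneurosome input. Of 34 astrocyte markers tested 27 were called higher and 0 lower (median 1.68), and in 28 all synaptoneurosome libraries lay above all cortex libraries (16.4% of all genes did). Their summed share of nuclear counts was 1.16% ± 0.0357 (SD, n = 3) in cortex and 5.54% ± 0.608 in synaptoneurosomes. Slc1a2 alone made up most of that share, 0.664% and 4.02%, and the other 33 markers took 0.498% ± 0.0356 and 1.53% ± 0.24. In bulk RNA a larger number of cell pieces and more RNA per piece cannot be told apart. Slc1a2, the main glutamate transporter of astrocytes, stood at 2083, 2396 and 2587 in cortex and 18071, 18169.6 and 17159.7 in synaptoneurosomes (log2 change 2.92 ± 0.26, adjusted p = 1.23e-06), which is a 7.56-fold difference. Slc1a3, the second glutamate transporter, changed by 2.30 ± 0.25, the water channel Aqp4 by 2.18 ± 0.34, the glutamine synthetase gene Glul by 1.68 ± 0.25 and the filament gene Gfap by 1.78 ± 0.30, all called. Aldh1l1, whose promoter drives the tag, was not called, at 6.14, 5.11 and 11.1 and 16.4, 11.3 and 4.05 (log2 change 0.49 ± 0.44, adjusted p = 0.538), with overlapping groups.

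Genes for what astrocytes secrete had a median like that of the markers, and genes for their transcription factors a lower one. Of 25 secreted or synapse-regulating genes 18 were higher and 0 lower, with a median of 1.9. Sparcl1, which promotes synapse formation, rose from 168, 214 and 176 to 1546, 1484 and 1092 (log2 change 2.88 ± 0.24, adjusted p = 7.84e-07), Sparc, its antagonist, from 67, 87 and 67.1 to 656, 733 and 542 (log2 change 3.13 ± 0.30, adjusted p = 1.99e-06), and Ptprz1, a receptor phosphatase that is also shed, from 62.7, 61.5 and 58.9 to 448, 366 and 385 (log2 change 2.71 ± 0.22, adjusted p = 6.5e-07). Of 23 transcription factors 3 were higher and 0 lower, with a median of 0.48. Those 3 were Zbtb20 (1.23 ± 0.21), Nfia (1.08 ± 0.30) and Emx2 (1.29 ± 0.39). Zbtb20 lost its call with offsets corrected for transcript length (adjusted p = 0.17), as did Nfia (0.217). Nfia and Emx2 lost theirs when any 1 library other than synaptoneurosome replicate 3 was left out (adjusted p up to 0.125 and 0.186), and Emx2 also without the low-count filter or in the fit of both input groups alone (up to 0.179). Sox9, a factor named after its values were seen, stood at 12.6, 14.1 and 15.8 and 20, 19.4 and 19.9 and was not called. The difference between the lists was not tested. In all 3 astrocyte lists and the microglial, myelin, precursor, receptor, interneuron and lysosomal lists below, 0 members were lower at an unadjusted p below 0.05 and 0 by DESeq2.

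**Figure D1:**
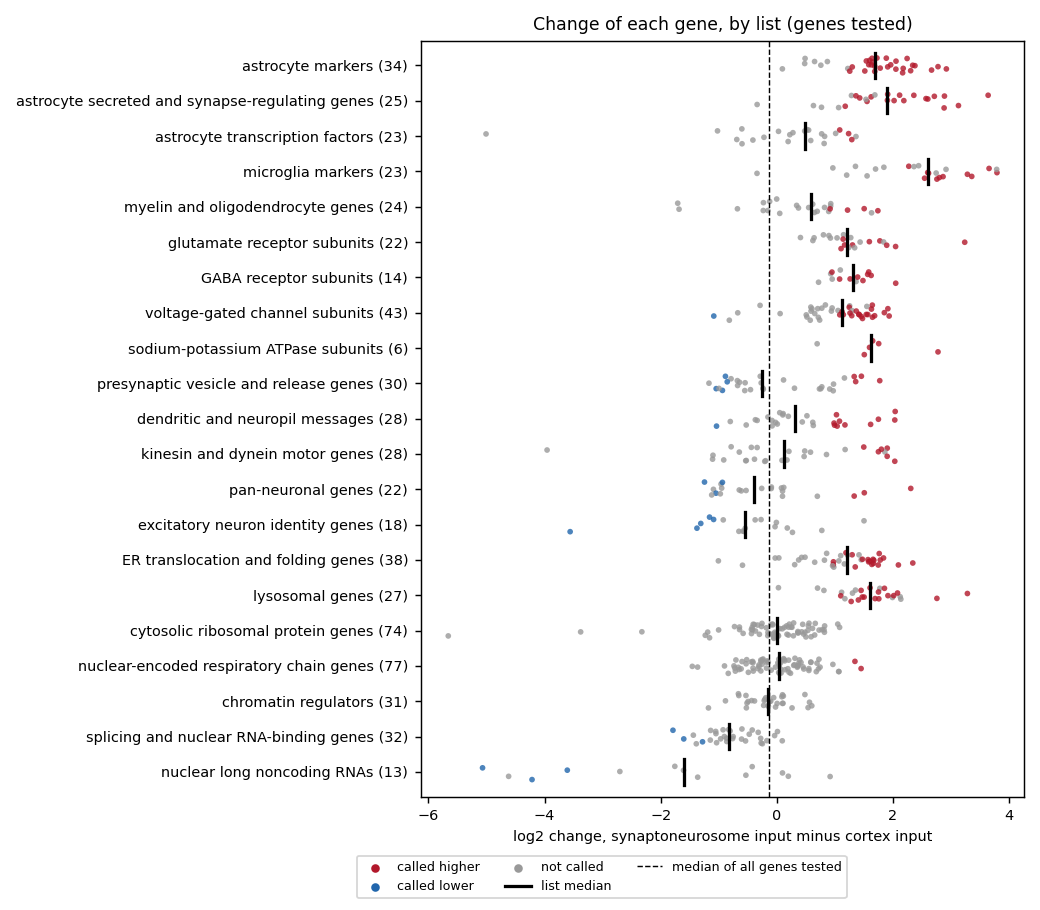
Log2 change of every tested member (point) of 21 gene lists, synaptoneurosome input minus cortex input, with list medians (bars), the median of all genes tested (dashed line) and calls in colour. The medians of astrocyte, microglial, receptor, ER and lysosomal genes lie to the right of the dashed line, and those of splicing genes and nuclear long noncoding RNAs to its left.

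Microglial and oligodendrocyte messages were present and partly higher. Of 23 microglia markers 11 were higher and 0 lower (median 2.60), and 6 were higher without any 1 cortex library or without synaptoneurosome replicate 1. Csf1r, the receptor on which microglia depend, rose from 12.5, 9.43 and 13.6 to 122, 82.3 and 54.2 (log2 change 2.86 ± 0.36, adjusted p = 3.75e-05), and Itgam, an integrin subunit of a complement receptor, from 3.65, 6.11 and 7.75 to 110.4, 66.2 and 65.9 (log2 change 3.79 ± 0.59, adjusted p = 0.000374). C1qa, a complement subunit, had under 3 CPM in every library and was not called. Of 24 myelin and oligodendrocyte genes 4 were higher and 0 lower (median 0.58), among them Mbp, a myelin protein whose message is transported (log2 change 1.5 ± 0.30, adjusted p = 0.00297), and Enpp2, a secreted lysophospholipase (log2 change 1.74 ± 0.28, adjusted p = 0.000496). The number higher was 2 without cortex replicate 1 or 3 and 7 by DESeq2. Of 13 genes of oligodendrocyte precursors Tnr and Pdgfra were higher and 0 lower (median 1.13), and the call of Pdgfra was lost when any library but synaptoneurosome replicate 2 was left out (adjusted p up to 0.156). Of 11 endothelial genes 2 were higher (1 without any library but synaptoneurosome replicate 2), and of 5 red cell genes 0 were called in edgeR's test, with all 5 changes negative (3 lower at an unadjusted p below 0.05, 1 by DESeq2).

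Neuronal messages divided by what they encode. Of 22 glutamate receptor subunits 9 were higher and 0 lower (median 1.20), of 14 GABA receptor subunits 9 and 0 (median 1.31), and of 43 voltage-gated channel subunits 20 and 1 (median 1.12). The number of GABA receptor subunits higher was 5 without cortex replicate 2 or 3, and DESeq2 called 15 glutamate receptor subunits higher. For channel subunits it was 11 to 13 without any library other than synaptoneurosome replicate 2, and 11 with length-corrected offsets. The changes of all 22 glutamate and all 14 GABA receptor subunits were positive, except that 21 of the 22 were with length-corrected offsets. Gria3, a subunit of AMPA receptors, rose from 245, 226 and 249 to 785, 746 and 926 (log2 change 1.77 ± 0.32, adjusted p = 0.00142). Scn8a, a sodium channel of axons, rose from 235, 218 and 252 to 903, 819 and 972 (log2 change 1.93 ± 0.29, adjusted p = 0.000274). For both genes every synaptoneurosome library lay above every cortex library. Grm3, a metabotropic receptor that astrocytes also express, changed by 1.89 ± 0.29. Of 6 sodium pump subunits 5 were higher (median 1.62).

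Of genes of the presynaptic ending 4 were higher and 4 lower among 30 tested, with a median of -0.26 (10 and 5 by DESeq2). The higher ones were Bsn, a scaffold of the active zone (log2 change 1.36 ± 0.23, adjusted p = 0.000844), Syt1, the calcium sensor of release (log2 change 1.33 ± 0.23, adjusted p = 0.00103), Sv2b, a vesicle membrane glycoprotein (log2 change 1.46 ± 0.30, adjusted p = 0.00433), and Synpr, a vesicle membrane protein (log2 change 1.77 ± 0.50, adjusted p = 0.0321). The lower ones were Snap25 and Vamp2, which form the complex that fuses vesicles, and Nsf and Napb, which take it apart. Snap25 stood at 4506, 4189 and 5209.5 in cortex and 1865, 1855 and 3539.8 in synaptoneurosomes (log2 change -0.94 ± 0.27, adjusted p = 0.0319), with replicate 3 nearest to cortex. Vamp2 changed by -0.85 ± 0.26, Nsf by -0.89 ± 0.26 and Napb by -1.05 ± 0.30. These falls were close to the threshold: each of the 4 calls was lost when any library but synaptoneurosome replicate 3 was left out (for Snap25, Vamp2, Nsf and Napb adjusted p up to 0.165, 0.194, 0.148 and 0.144), while the direction was kept in every setting run. The calls of Snap25 and Vamp2 were also lost with length-corrected offsets, and that of Synpr when any library but synaptoneurosome replicate 3 was left out (adjusted p up to 0.137).

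Messages known to be carried into dendrites included some that rose and many that were not called. Of 28 tested 10 were higher and 1 lower, with a median of 0.32. The number higher was 4 without cortex replicate 1 or 2 and 5 without synaptoneurosome replicate 1. Camk2a, the dendritic kinase subunit, rose from 1289, 1129.7 and 1669 to 3324, 2732 and 3155 (log2 change 1.17 ± 0.32, adjusted p = 0.0265), and this call was lost when any library but synaptoneurosome replicate 2 was left out (adjusted p up to 0.122). Shank1, a scaffold of the spine, rose from 290.0, 216 and 349.5 to 1380.3, 941 and 1191 (log2 change 2.04 ± 0.30, adjusted p = 0.00018). Homer1, which binds Shank proteins, fell from 134, 192 and 151 to 69.7, 80.2 and 82.1 (log2 change -1.04 ± 0.27, adjusted p = 0.0202), and the call was lost without cortex replicate 2 or 3 or synaptoneurosome replicate 1 or 2 (adjusted p up to 0.121). Camk2b, the partner subunit of Camk2a, named after its values were seen, fell from 241, 234 and 292 to 103, 114 and 166 (log2 change -1.0 ± 0.25, adjusted p = 0.0169). Its call was lost without cortex replicate 3 or synaptoneurosome replicate 1 or 2 (adjusted p up to 0.0962).

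Some messages for transport motors, which are soluble proteins, rose as well. Of 28 kinesin and dynein genes 6 were higher and 0 lower in edgeR's test, with a median of 0.13 (8 and 1 by DESeq2, 8 and 5 at an unadjusted p below 0.05), and a median of -0.14 with length-corrected offsets. Kif1a, which carries vesicle precursors along axons, rose from 521, 535 and 599 to 2251, 2367 and 2139.6 (log2 change 2.03 ± 0.22, adjusted p = 8.28e-06), Kif1b from 419, 452 and 429 to 1488, 1469 and 1568 (log2 change 1.8 ± 0.21, adjusted p = 1.64e-05), and Kif5c, a conventional kinesin, from 293, 386 and 349 to 1356, 1312 and 1167 (log2 change 1.9 ± 0.24, adjusted p = 3.75e-05). The share of called-higher genes grew with transcript length, from 3.09% in the shortest 20% of nuclear genes (up to 1727 bases) to 13.1% in the longest (from 5049 bases). It also grew with level, from 0.487% to 21.8%.

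Some transcription factors that mark excitatory neurons were lower, and the interneuron and pan-neuronal lists held changes of both signs. Of 18 excitatory neuron identity genes 5 were lower and 0 higher in edgeR's test (median -0.55; 5 and 1 by DESeq2, 7 and 2 at an unadjusted p below 0.05): Neurod6, Neurod2, Foxp2, Tle4 and Bcl11b, all regulators of transcription. Neurod6 fell from 90.8, 64.5 and 65 to 23.6, 31.9 and 33.2 (log2 change -1.31 ± 0.31, adjusted p = 0.0107) and Neurod2 from 44.8, 36.1 and 56.4 to 16.4, 14.3 and 22 (log2 change -1.38 ± 0.37, adjusted p = 0.0225). Foxp2 fell from 14.2, 14.1 and 19.8 to 0.303, 1.49 and 2.12. Each of the 5 calls was lost when 1 library was left out, Foxp2 without synaptoneurosome replicate 1 alone (adjusted p = 0.0557), Neurod6 without cortex or synaptoneurosome replicate 1 (up to 0.0825), Neurod2 without replicate 1 or 3 of cortex or 1 or 2 of synaptoneurosomes (up to 0.119), and Tle4 and Bcl11b without any 1 of the 6 (up to 0.131 and 0.126). Slc17a7, the vesicular glutamate transporter and a membrane protein on that list, stood at 255, 206 and 254 and 362, 392 and 468, without overlap, and was not called (adjusted p = 0.0626). Of 18 interneuron identity genes 3 were higher and 0 lower: Sst, the secreted peptide somatostatin (1.44 ± 0.31), Reln, a secreted matrix protein (2.31 ± 0.52), and Cnr1, the cannabinoid receptor (1.21 ± 0.31). The number higher was 1 without cortex replicate 3 and 6 by DESeq2. Of the 18 changes 11 were positive. Interneuron genes with a hydrophobic start or stretch, as defined below, had a median of 1.24 (11 genes), and those with neither -0.77 (6 genes). In the excitatory list these medians were 0.77 (3 genes) and -0.59 (15 genes). A difference between the neuron types was not tested. Reln lost its call without cortex replicate 3 (adjusted p = 0.0615), and Cnr1 without cortex replicate 1 or 3 or synaptoneurosome replicate 2 (up to 0.101). In the pan-neuronal list 8 of 22 changes were positive, and at an unadjusted p below 0.05 4 genes were higher and 7 lower. Among 22 pan-neuronal genes 3 were higher and 3 lower (median -0.40), among them Syt1 and the secreted granule protein Chga (2.30 ± 0.53; adjusted p = 0.057 without cortex replicate 2) against Snap25, the glycolytic enzyme Eno2 (log2 change -1.25 ± 0.29, adjusted p = 0.00991; 0.0682 without synaptoneurosome replicate 2) and the splicing factor Rbfox1 (log2 change -1.05 ± 0.28, adjusted p = 0.0229; lost without any library but synaptoneurosome replicate 3, up to 0.126).

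**Figure D2:**
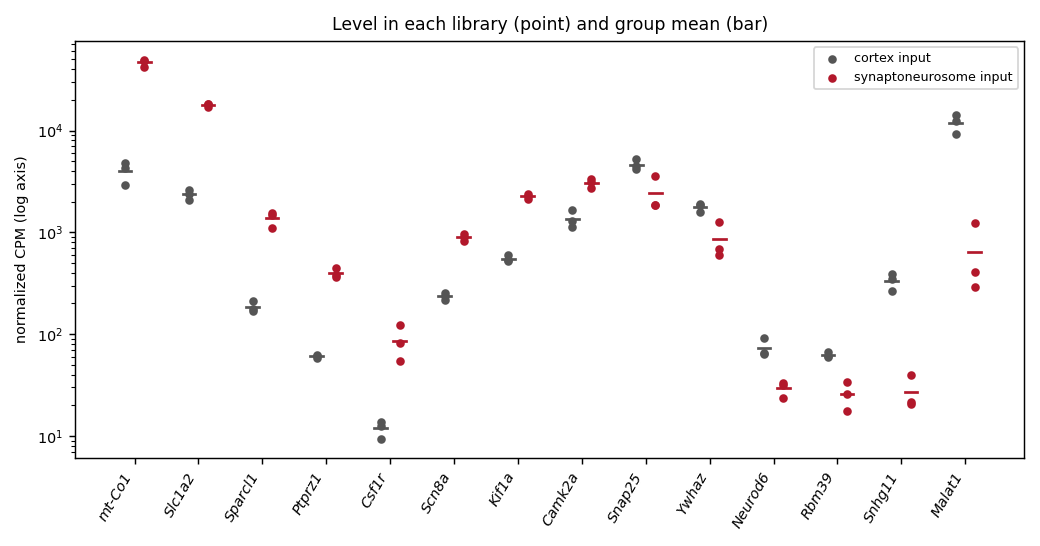
Normalized CPM (log axis) of 14 genes in each of the 3 cortex input and 3 synaptoneurosome input libraries (points), with group means (bars). The groups do not overlap for any of the 14 genes, and the synaptoneurosome library nearest to cortex for Snap25 and Malat1 is replicate 3.

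Many messages of the secretory pathway, which is shared by all cell types, rose. Of 38 genes for ER translocation and folding 19 were higher and 0 lower (median 1.20; 1 lower at an unadjusted p below 0.05, 0 by DESeq2), and of 27 lysosomal genes 16 and 0 (median 1.6), or 10 without cortex replicate 1. Canx, an ER chaperone of glycoproteins, rose from 81.4, 100.3 and 78.8 to 280.4, 313 and 337 (log2 change 1.84 ± 0.23, adjusted p = 3.54e-05), and Hspa5, the main soluble chaperone of the ER lumen, from 43.1, 44.6 and 39.8 to 102, 137 and 157 (log2 change 1.64 ± 0.28, adjusted p = 0.000846). Psap, the precursor of lysosomal saposins, rose from 80.7, 76.4 and 68.9 to 349, 391 and 213 (log2 change 2.08 ± 0.26, adjusted p = 3.75e-05), and Ctsd, a lysosomal protease, from 30.6, 25.2 and 26.2 to 114, 81.4 and 135 (log2 change 2.01 ± 0.28, adjusted p = 9.82e-05). Genes for the cytosolic machinery of protein synthesis and breakdown had few members called: 0 of 74 ribosomal protein genes in edgeR's test (median 0.01; 1 higher and 0 lower by DESeq2, 1 and 2 at an unadjusted p below 0.05). Likewise 1 of 37 translation factors was higher (median -0.08), and 1 of 36 proteasome genes was higher (median -0.29), with 0 to 3 and 0 to 1 higher and 0 to 1 and 0 to 2 lower when any 1 library was left out. Near-identical copies make the counts of ribosomal protein genes uncertain.

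To describe this across all genes, each protein was translated from the transcript with the longest coding sequence (GENCODE M21) and scored for hydropathy by the Kyte-Doolittle scale. A stretch was counted as hydrophobic where 19 residues had a mean of at least 1.6, as in a membrane-spanning helix, and a start as hydrophobic where 11 residues within the first 33 had a mean of at least 2.0, as in a signal peptide. These thresholds were set after the list results were known. A stretch was found in 78.2% of the proteins of 912 nuclear genes called higher, in 12.8% of those of 258 called lower, and in 35.5% of all 12373 scored. A hydrophobic start was found in 47.4%, 1.55% and 16.5%. The coding starts of 4 genes that rose and 2 that fell are printed because they show this difference in the sequence itself. They are the first 99 bases of the coding sequence, with the most hydrophobic 11 codons in capitals where their mean reaches 2.0; the gene positions are those of GRCm38.

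Sparcl1 (secreted, higher, chr5:104079111-104113733, minus strand): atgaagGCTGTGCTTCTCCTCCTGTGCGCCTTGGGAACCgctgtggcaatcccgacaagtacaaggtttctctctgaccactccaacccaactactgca
Psap (lysosomal, higher, chr10:60277627-60302597, plus strand): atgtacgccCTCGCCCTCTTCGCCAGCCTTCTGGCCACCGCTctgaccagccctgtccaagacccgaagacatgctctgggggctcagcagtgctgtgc
Hspa5 (ER lumen, higher, chr2:34771970-34777547, plus strand): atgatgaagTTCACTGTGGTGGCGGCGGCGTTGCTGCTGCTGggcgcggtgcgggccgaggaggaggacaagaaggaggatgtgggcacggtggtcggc
Ctsd (lysosomal, higher, chr7:142375911-142388038, minus strand): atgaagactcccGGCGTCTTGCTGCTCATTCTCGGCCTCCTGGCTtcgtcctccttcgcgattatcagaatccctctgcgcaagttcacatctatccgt
Snap25 (cytosolic face of the membrane, lower, chr2:136713453-136782428, plus strand): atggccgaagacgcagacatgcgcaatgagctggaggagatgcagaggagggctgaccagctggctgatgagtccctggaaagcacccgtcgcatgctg
Ywhaz (cytosol, lower, chr15:36770770-36796929, minus strand): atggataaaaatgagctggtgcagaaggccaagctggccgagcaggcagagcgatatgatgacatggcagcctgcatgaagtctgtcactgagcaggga

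The 4 upper genes each have a run of codons for hydrophobic residues near the start, with a highest mean hydropathy of 2.56, 2.16, 2.83 and 2.96, and the 2 lower genes do not, at -0.72 and 0.15. The genes were chosen after their values were seen. Ywhaz, a 14-3-3 adaptor, fell from 1856, 1601 and 1919 to 692, 599.8 and 1265 (log2 change -1.07 ± 0.26, adjusted p = 0.013). The call of Ywhaz was lost without cortex replicate 3 or synaptoneurosome replicate 1 or 2 (adjusted p up to 0.0861).

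Among 2038 genes with a hydrophobic start 432 were higher and 4 lower (median 0.99). Among 2673 with a hydrophobic stretch elsewhere 316 were higher and 31 lower (median 0.34), and among 7662 with neither 164 were higher and 223 lower (median -0.42). Leaving out any 1 library gave 230 to 342 higher and 1 to 11 lower with a hydrophobic start, 170 to 257 and 5 to 29 with a stretch elsewhere, and 82 to 166 and 49 to 202 with neither. Among genes with neither, more were higher than lower without any library but synaptoneurosome replicate 3, and with RLE scaling (200 and 168), while their median stayed between -0.44 and -0.32 in those fits. With length-corrected offsets they were 386 and 4, 278 and 37, and 144 and 300. The difference in medians between proteins with a hydrophobic start or stretch and those with neither was present in every 20% bin of level and in every 20% bin of transcript length: in the shortest transcripts the medians were 0.35 and -0.48, and in the longest 0.78 and -0.22. In pools of neuronal and of astrocyte lists, all read in RNA of mixed tissue, the medians differed in the same direction. In the neuronal lists pooled, 48 of 106 genes with a start or stretch were higher and 1 lower (median 1.17), against 9 and 12 of 83 with neither (median -0.37). When any 1 library was left out, the counts were 28 to 40 higher and 0 to 1 lower, against 5 to 8 and 1 to 10. This split partly follows the lists already described. All 22 glutamate and 14 GABA receptor subunits and 39 of 43 channel subunits had a start or stretch, whereas 26 of 28 dendritic messages had neither. Within the presynaptic list the medians were 0.91 (13 genes) and -0.55 (17 genes), and within the pan-neuronal list 1.01 (6 genes) and -0.79 (16 genes). In the astrocyte lists pooled, 36 of 45 with a start or stretch were higher (median 1.72), against 11 of 35 with neither (median 0.65), and 0 were lower in either. The astrocyte split also partly follows the lists. All 23 transcription factors had neither (median 0.479), whereas 24 of 25 secreted or synapse-regulating genes had a start or stretch. Within the astrocyte markers the medians were closer, at 1.804 (22 genes, 20 higher) and 1.58 (12 genes, 7 higher). Protein-coding genes on no list had medians of 0.59 with a start or stretch (4326 genes) and -0.42 with neither (6839 genes).

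**Figure D3:**
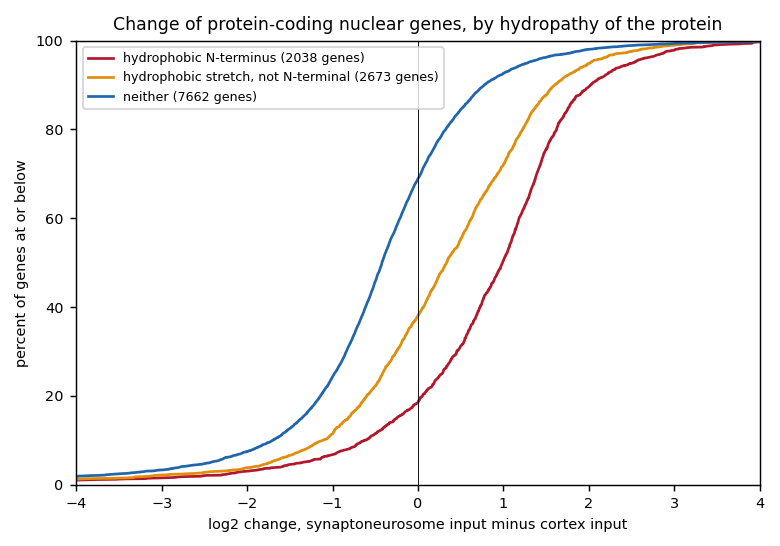
Cumulative distribution of the log2 change, synaptoneurosome input minus cortex input, of nuclear protein-coding genes in 3 classes of predicted protein (x axis from -4 to 4, y axis in percent of genes). The curve of genes with a hydrophobic start (median 0.99) lies right of that of genes with a stretch elsewhere (median 0.34), and both lie right of that of genes with neither (median -0.42).

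The shares differed with the place of the stretch. In proteins anchored by their tail, such as the SNARE Stx7, it can enter a membrane only after translation has ended. Of 216 genes whose first stretch starts within the last 50 residues 13 were higher and 5 lower (median -0.11), whereas of 4178 with an earlier stretch 700 were higher and 28 lower (median 0.67). When any 1 library was left out, the counts were 3 to 8 and 0 to 5 at the tail, and 373 to 562 and 6 to 31 earlier. The 5 lower ones were Ddi2, Fkbp8, Bnip3l, Jakmip2 and Stx7, of which Fkbp8 and Bnip3l sit in the outer mitochondrial membrane. The class was set by position alone, in the longest isoform, so it need not match the proteins anchored by their tail. Vamp2, called lower, was counted with the earlier stretches, as its first stretch starts 75 residues from the end of 163. The class was defined after the list results were known, and its difference was not tested.

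Subunits of the same complex lay on opposite sides of 0. The families below were chosen after their values were seen, and each is given with all tested members. The vacuolar proton pump has a membrane sector with accessory membrane proteins and a cytosolic sector. Of 9 membrane sector genes 3 were higher and 0 lower (median 0.86), namely Atp6ap2 (log2 change 1.75 ± 0.35, adjusted p = 0.0033), Atp6v0a1 (log2 change 1.38 ± 0.30, adjusted p = 0.00586) and Atp6ap1 (log2 change 1.30 ± 0.24, adjusted p = 0.0017). Of 9 cytosolic sector genes 0 were higher and 3 lower (median -0.73), and all 9 changes were negative, except 1 of 9 without cortex replicate 3 or synaptoneurosome replicate 1. Those 3, Atp6v1c1, Atp6v1g2 and Atp6v1e1, lost their calls when any 1 library was left out, for Atp6v1c1 and Atp6v1e1 other than synaptoneurosome replicate 3 (adjusted p up to 0.168, 0.165 and 0.172), and with RLE scaling or length-corrected offsets. Voltage-gated calcium channels divided alike. Of 8 pore-forming alpha-1 genes 4 were higher and of 4 alpha-2-delta genes, whose products are extracellular, 3 were higher, with all 12 changes positive, except 1 without synaptoneurosome replicate 1. The number of alpha-1 genes higher was 1 without cortex replicate 2, 2 without any other library but synaptoneurosome replicate 2, and 2 with length-corrected offsets. The number of alpha-2-delta genes was 2 to 3. Of the 4 cytosolic beta subunit genes 1 was lower and all 4 changes were negative. Cacna1e rose from 227, 235 and 248 to 749, 687 and 783 (log2 change 1.64 ± 0.24, adjusted p = 0.000228), and Cacnb4 fell from 335, 357 and 372 to 153, 141 and 206 (log2 change -1.09 ± 0.31, adjusted p = 0.0337; lost without any library but synaptoneurosome replicate 3, adjusted p up to 0.141).

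Members of several families of soluble signalling proteins were lower, though not all families were uniform. Of 3 calmodulin genes Calm2 (log2 change -1.03 ± 0.25, adjusted p = 0.0119) and Calm3 (log2 change -0.84 ± 0.23, adjusted p = 0.0304) were lower, and of 4 calcineurin genes Ppp3cb (log2 change -0.84 ± 0.22, adjusted p = 0.0219) and Ppp3r1 (log2 change -0.92 ± 0.28, adjusted p = 0.042). Of 6 genes for 14-3-3 adaptors 3 were lower. All 13 changes in these 3 families were negative, except 1 of the 14-3-3 genes without cortex or synaptoneurosome replicate 2, and each of the 7 calls was lost when 1 library was left out. Calm2 lost its call without cortex replicate 2 or synaptoneurosome replicate 1 or 2 (adjusted p up to 0.0837), and Calm3 and Ywhah without any 1 of the 6 (up to 0.12 and 0.112). Ppp3cb lost its call without any library but synaptoneurosome replicate 1 (up to 0.106), and Ppp3r1 and Ywhag without any but synaptoneurosome replicate 3 (up to 0.205 and 0.202). Among 14 beta and gamma subunits of heterotrimeric G proteins, also soluble at synthesis, Gng3 (log2 change -1.42 ± 0.33, adjusted p = 0.00932) and Gnb1 (log2 change -0.74 ± 0.22, adjusted p = 0.044) were lower and 0 higher (median -0.93), but 3 of the 14 changes were positive, up to 0.59 for Gng12. The call of Gng3 was lost without synaptoneurosome replicate 1 or 2 (adjusted p up to 0.0675), and that of Gnb1 without any library but synaptoneurosome replicate 3 (up to 0.175) and with RLE scaling or length-corrected offsets (up to 0.0739). Of 4 CaMKII subunit genes Camk2a was higher, Camk2b lower and the other two not called.

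**Figure D4:**
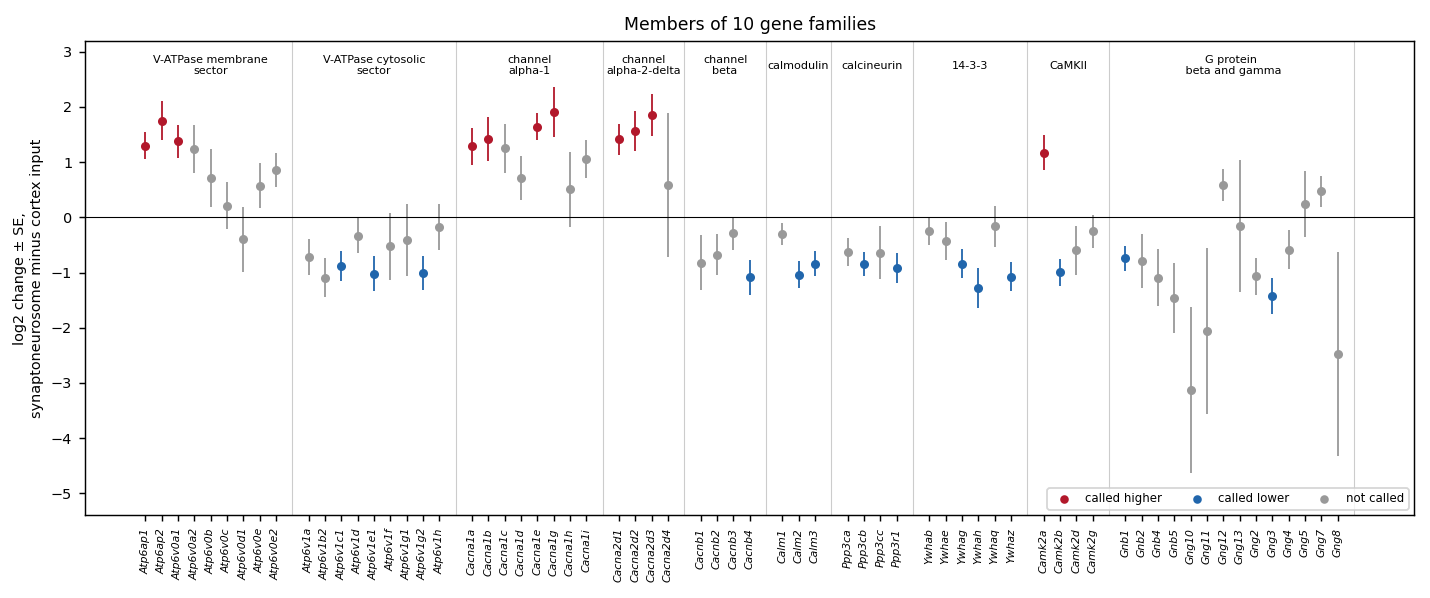
Log2 change with its SE (bars), synaptoneurosome input minus cortex input, of every tested member of 10 gene families, with calls in colour. Membrane sector, alpha-1 and alpha-2-delta subunits lie above 0 with 1 exception (Atp6v0d1), and cytosolic sector, beta subunit, calmodulin, calcineurin and 14-3-3 genes lie below 0. Among CaMKII genes Camk2a, and among G protein beta and gamma genes Gng12, Gng5 and Gng7, lie above 0.

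Not every message that rose encodes a membrane or secreted protein. Of the 912 scored genes called higher 164 had neither a hydrophobic start nor a stretch. By smallest p the first of these were Prex2, an exchange factor for Rac (log2 change 2.91 ± 0.30, adjusted p = 6.05e-06), Apc, a binder of microtubules and of beta-catenin (log2 change 2.20 ± 0.23, adjusted p = 7.33e-06), Kif1a, the astrocyte gene Ndrg2 (log2 change 2.38 ± 0.26, adjusted p = 8.28e-06), and Myo6, a myosin that moves vesicles (log2 change 2.55 ± 0.29, adjusted p = 1.64e-05). The scoring also missed some secreted proteins: the lysosomal protease Ctss, which carries a signal peptide, rose from 5.81, 6.71 and 5.68 to 64.3, 58.7 and 54 and was counted among those with neither.

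The pull-downs give a second readout that shares no library with the inputs: PAP TRAP (tagged astrocyte ribosomes of the synaptoneurosome layer) against cortex TRAP. There 2579 genes were higher, 19.3% of those tested, and 1949 were lower, 14.6%. The labels do not say whether these pull-downs were made from the same lysates as the inputs. Mitochondrial genes took 35.6% to 47.6% of gene counts in PAP TRAP and 1.03% to 1.28% in cortex TRAP. Across genes PAP TRAP libraries had Spearman correlations of 0.834 to 0.884 with synaptoneurosome inputs and 0.815 to 0.866 with cortex inputs. With cortex TRAP libraries they had 0.657 to 0.767. How much RNA not on tagged ribosomes the pull-downs hold was not tested. Of the 970 genes higher in the synaptoneurosome input 525 were also higher in PAP TRAP (54.1%) and 148 were lower (15.3%), and of the 276 lower ones 83 were lower (30.1%) and 45 higher (16.3%). Across 13337 nuclear genes the changes had a Pearson correlation of 0.221 and a Spearman correlation of 0.223; genes are not independent replicates.

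Gene groups differed between the readouts. For the 34 astrocyte markers 27 were higher in the input comparison, whereas in the pull-downs 0 were higher and 28 lower, by edgeR and by DESeq2 (medians 1.68 and -1.40). For glutamate receptor subunits both medians were positive (1.20 and 3.57), with 18 of 22 higher in PAP TRAP. Presynaptic genes had a median of -0.26 in the inputs and 2.71 in the pull-downs, where 26 of 30 were higher. Snap25, lower in the inputs, was not called there (log2 change 0.10 ± 0.26, adjusted p = 0.802), and Slc1a2, higher in the inputs, was not either (log2 change 0.36 ± 0.24, adjusted p = 0.27). Splicing genes had negative medians in both (-0.82 and -0.76). Malat1, lower in the inputs, was not called in the pull-downs (log2 change -0.22 ± 0.43, adjusted p = 0.716). Microglia markers, which the tag should not reach, had 12 of 23 higher and 0 lower in PAP TRAP (median 2.62), and the part of other cell types in this readout was not tested.

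**Figure D5:**
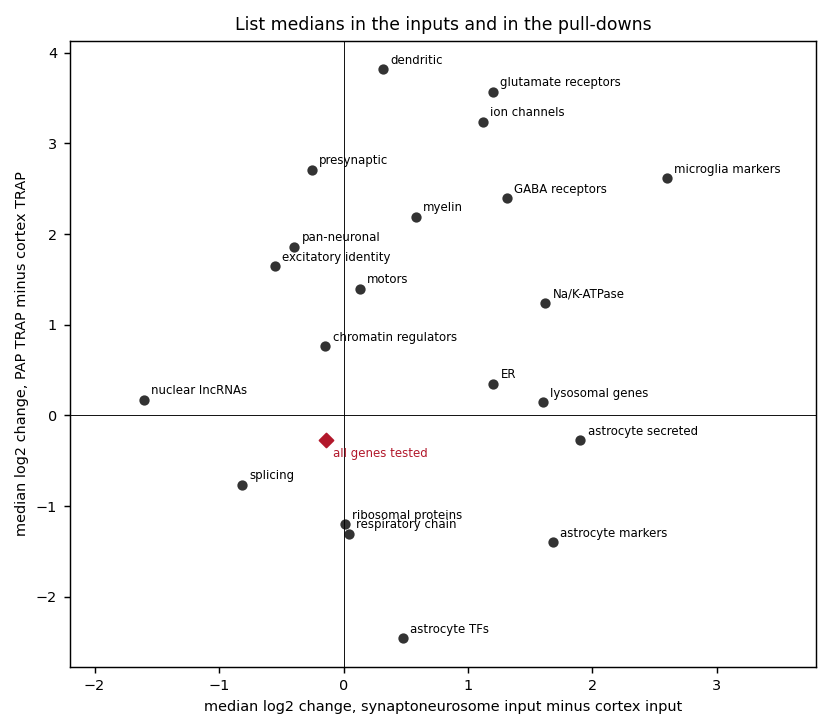
Median log2 change of 21 gene lists (points) and of all genes tested (diamond) in synaptoneurosome input minus cortex input (x axis) and PAP TRAP minus cortex TRAP (y axis). Astrocyte markers lie at 1.68 and -1.40, glutamate receptors at 1.20 and 3.57, and splicing genes at -0.82 and -0.76.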

How the data were processed

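RNA was sequenced from 3 cortex input and 3 synaptoneurosome input libraries, and from 6 pull-down libraries used as a second readout. Per the labels' protocols, cDNA was made from 2 ng of RNA, amplified by SPIA (a linear isothermal method, here without molecular identifiers), and sonicated to about 200 bp, with 500 ng used per library. What the authors deposited are raw counts per gene, whole numbers that no scaling had touched, as the files show. The submitters' processing notes name Trimmomatic 0.32, Bowtie2, HTSeq and STAR. How strand was handled, which annotation was counted and which genome build was mapped to is not given in the sources used here. Rows naming no gene held 20.3% to 35.6% of counts in the input libraries and were left out.

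The 41388 identifiers were matched to GENCODE M21 (GRCm38), and 40340 had a symbol. Genes were kept by filterByExpr (minimum count 10, minimum total 15). All 12 libraries were fitted with 1 mean per group, TMM scaling and the quasi-likelihood F test of edgeR 4.0.16 in R 4.3.3, with Benjamini-Hochberg adjustment over 13364 genes. In data simulated from these libraries, 46% of genes changed by 2 on the log2 scale were called, 3% of those changed by 1, and 2 unchanged genes. Lists were described by counts and medians, with no test of the list.

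The members and lists were chosen with earlier results of these data known. Named were the 12 largest rises and the 12 largest falls (called, groups not overlapping, log2 CPM averaging 3 or more), for each list at most 3 called higher and 3 called lower, taken by p, and 2 not called, taken by level, and a fixed set of cell type markers. Not all of them are described. Named outside this rule, after their values were seen, were Tle4, Bcl11b, Ywhaz, Ywhah, Ywhag, Calm2, Calm3, Ppp3cb, Ppp3r1, Camk2b, Gng3, Gnb1, Gng12, Gng5, Gng7, Vamp2, Synpr, Sox9, Prex2, Apc, Myo6, Atp6v0d1, Stx7, Ddi2, Fkbp8, Bnip3l and Jakmip2. Alternatives were RLE scaling, no low-count filter, DESeq2 1.42.0, the input groups alone, a replicate block, no mitochondrial genes, thinned counts, GC-corrected or length-corrected offsets, and each input library left out. Hydropathy thresholds of 1.4 and 2.0 were added after seeing the data. A few genes within this rule are left out of the text.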

Additional observations from a re-analysis of the deposited data

How the results depend on the processing

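The direction of each of the 98 genes followed across the settings was kept in every setting run in which the gene was tested, while 40 of the 91 called ones lost their call in at least 1. The number of genes called, 1246, became 2035 with DESeq2 and 2251 with the input groups alone. Genes called higher, 970, became 1538 and 1550, and genes called lower, 276, became 497 and 701, and 544 with thinned nuclear counts. Leaving out 1 library gave 608 to 1025 genes called, 525 to 769 higher and 61 to 256 lower; those fits had 1 library fewer. The share of higher genes whose protein has a hydrophobic stretch, 78.2%, was 72.8% without synaptoneurosome replicate 3 and up to 79.6% without other libraries. With hydropathy thresholds of 1.4 and 2.0 it was 84.3% and 63.9%, and that of lower genes, 12.8%, was 24.4% and 3.1%. Genes higher in both readouts, 525, became 788 with DESeq2, and those lower in both, 83, became 155. Of 41 lists with at least 5 genes tested, 25 had a median above that of all genes, and 23 to 28 had in the alternatives. The cause of these differences was not tested.

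Replicate numbers are shared by the groups, and the labels do not say whether they pair the libraries. Deviations of same-numbered libraries from their group means correlated at 0.037, 0.028 and 0.064 across genes. Those of differently numbered libraries correlated at -0.059 to 0.025. Whether the libraries are paired was not tested. With the replicate number as a block 1356 genes were called, 1015 higher and 341 lower. Depth limits the synaptoneurosome side, where nuclear genes had 1423296 to 2476076 counts.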

Other observations

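Genes of cholesterol synthesis, a pathway that runs on the ER membrane, had 5 of 22 members higher and 0 lower in edgeR's test (median 0.85; 7 and 0 by DESeq2, 8 and 1 at an unadjusted p below 0.05). Cyp51, a demethylase of that pathway, and Sc5d, a desaturase, were among them, with log2 changes of 1.83 ± 0.28 and 1.24 ± 0.33. Leaving out any 1 library left 1 to 3 of the 22 higher, and the call of Sc5d was lost without any 1 of 5 libraries, synaptoneurosome replicate 1 being the exception (adjusted p up to 0.139). By protein class the 15 members with a hydrophobic start or stretch had a median of 1.05 and the 7 with neither a median of -0.05. Glycolysis genes had 2 of 20 higher and 2 lower (median -0.22), and 1 to 3 and 0 to 1 when any 1 library was left out. By DESeq2 3 were higher and 2 lower, and at an unadjusted p below 0.05 4 and 7. Of the 20 changes 8 were positive. Aldoc, the isozyme of astrocytes, was 1 of the 2 higher genes (log2 change 1.51 ± 0.26, adjusted p = 0.000904). The 2 lower ones were Eno2 and Pfkp, enzymes that neurons express. Whether the list divides by cell type was not tested. The call of Pfkp was lost without any 1 of the 6 libraries (adjusted p up to 0.133). Immediate early genes, which respond to neuronal activity, had 0 of 25 higher and 1 lower, Homer1, with a median of -0.77 (0 and 2 by DESeq2, 0 and 3 at an unadjusted p below 0.05). In 11 of the 25 all synaptoneurosome libraries lay below all cortex libraries, against 20.1% of all genes tested.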
